A study of Mus musculus with 4 samples.

Results

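The 7 genes described here are H2-Aa, H2-Ab1, H2-Eb1, H2-DMa, H2-DMb1, Cd74 and Ciita, the core genes of MHC class II antigen presentation in the mouse. They were taken by gene symbol, 7 of the 33954 genes counted in every library. No measured value entered that rule, but the members were chosen with earlier results of these data known. The identifiers in the deposited tables are ENSMUSG00000036594 for H2-Aa, ENSMUSG00000073421 for H2-Ab1, ENSMUSG00000060586 for H2-Eb1, ENSMUSG00000037649 for H2-DMa, ENSMUSG00000079547 for H2-DMb1, ENSMUSG00000024610 for Cd74 and ENSMUSG00000022504 for Ciita. H2-Aa lies on chromosome 17 beside H2-Ab1, H2-Eb1, H2-DMa and H2-DMb1, while Cd74 lies on chromosome 18 and Ciita on chromosome 16. Summed over the nuclei kept from the 4 libraries there were 1168 molecules (unique molecular identifiers, UMIs) of H2-Aa, 1251 of H2-Ab1, 1255 of H2-Eb1, 1377 of H2-DMa, 314 of H2-DMb1, 3397 of Cd74 and 1472 of Ciita.

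MHC class II molecules display peptides from endocytosed proteins to CD4 T cells and are made mainly by dendritic cells, B cells and some macrophages. H2-Aa and H2-Ab1 encode the α and β chains of the I-A molecule, and H2-Eb1 encodes the β chain of I-E. Cd74, the invariant chain, blocks the peptide groove and guides the new molecule to endosomes, where the H2-DM heterodimer of H2-DMa and H2-DMb1 exchanges the last invariant chain fragment for a peptide. Ciita is the coactivator that switches the whole set on by binding a complex of RFX, CREB and NF-Y factors assembled on the X and Y boxes of class II promoters, and interferon γ acts through it in cells that are not professional antigen presenters.

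The study compared hearts of adult wild-type mice (WT) with hearts of mice carrying Vegfa Q150X, a stop-gained allele made by CRISPR/Cas9 editing and tagged HO in the series' text, either unperturbed (homeostasis) or 3 days after myocardial infarction (3dpMI). Nuclei from whole hearts were read with the 10x Genomics 5′ kit, with 1 library for each of the 4 combinations of genotype and state. The sources used here do not state the exact age, sex or strain of the mice, how the infarct was made, how many hearts stand behind a library, or what HO abbreviates. With 1 library per group no test between groups exists: every interval below is a 95% interval for counting error alone, and a difference between 2 libraries is a difference between those libraries.

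The filtered libraries held 4167, 6142, 8479 and 7364 nuclei (WT homeostasis, Q150X homeostasis, WT 3dpMI, Q150X 3dpMI; this order is kept throughout), with medians of 921, 968, 2029 and 2671 UMIs per nucleus, so the infarct libraries were deeper. Any pair of libraries shared between 39 and 117 cell barcodes. Vegfa itself stood at 427, 374, 210 and 133 CPM (UMIs of a gene per 1000000 UMIs of the library or class) over all nuclei and at 716, 925, 591 and 694 CPM in cardiomyocyte-like nuclei; 5′ counts do not read the edited codon, so these levels check no label. In the filtered nuclei the 7 genes summed to 321, 822, 3112 and 5979 UMIs, and this sum is called class II from here on.

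The promoter stretches below are shown because the class II genes are known as a set switched on together through paired X and Y boxes. The letters AACNNATG were used for the X box and GATTGG for the Y box, on both strands of the 250 bases before each RefSeq gene start (mouse build GRCm38.p6), and they were chosen after reading these windows. Capitals mark both boxes, and each stretch is written 5′ to 3′ on the strand of its gene. For H2-Eb1 it is chr17:34305758-34305822 on the plus strand, for H2-Aa chr17:34287857-34287892 on the minus strand, for H2-Eb2 chr17:34325525-34325589, for H2-DMb2 chr17:34145108-34145173 and for H2-Ob chr17:34238800-34238862, the last 3 on the plus strand.
H2-Eb1: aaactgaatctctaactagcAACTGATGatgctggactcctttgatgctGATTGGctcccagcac
H2-Aa: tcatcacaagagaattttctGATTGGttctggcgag
H2-Eb2: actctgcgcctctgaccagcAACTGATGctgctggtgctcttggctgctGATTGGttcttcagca
H2-DMb2: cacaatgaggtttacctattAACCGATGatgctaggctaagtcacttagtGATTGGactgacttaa
H2-Ob: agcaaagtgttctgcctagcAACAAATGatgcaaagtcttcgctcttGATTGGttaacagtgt
H2-Eb1 carried the X letters 21 bases before the Y letters, H2-DMb1 and H2-DMb2 22 bases, H2-Eb2 21 and H2-Ob 19. H2-Eb2, H2-DMb2 and H2-Ob are not members but class II genes of the same chromosome 17 stretch; H2-Oa, another such gene, carried the Y letters alone. H2-Aa carried the Y letters alone, the window of the first H2-DMa start held neither, and that of its second start held the Y letters alone. Over all 32851 RefSeq windows of that length, 7.71% held the X letters and 14.6% the Y letters, while 32 windows (0.0974%) held X followed by Y at 8 to 40 bases. H2-Ab1, Cd74 and Ciita are not shown. A match describes letters in a window and shows no binding.

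Nuclei were clustered without the class II genes and their clusters named from marker lists, so that a level of class II could be read in classes that it did not define; cluster names are written X-like. Class II was summed over the 7 genes and expressed as CPM of all UMIs in the class. Among dendritic-like, B-like and macrophage-like nuclei the order after infarction was dendritic-like, then B-like, then monocyte-like. Far below them lay the resident and repair macrophage-like nuclei. Smaller classes are given at the end, and of these T or NK-like nuclei of Q150X 3dpMI stood above the monocyte-like level. Unnamed cluster i16, given with the dendritic-like genotype ratios, stood above it in both infarct libraries. In dendritic-like nuclei class II reached 5147 CPM (4826 to 5484; 84 nuclei) in WT 3dpMI and 4471 CPM (4272 to 4677; 169 nuclei) in Q150X 3dpMI. B-like nuclei held 1031 (812 to 1290) and 988 (864 to 1125) CPM in those libraries, and monocyte-like nuclei 478 (412 to 551) and 538 (498 to 580) CPM. Dendritic-like nuclei thus stood above B-like nuclei by 4.99-fold (3.95 to 6.39) in WT and 4.53-fold (3.94 to 5.22) in Q150X, and neither interval reaches 1.

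The macrophage-like class, in which monocyte-like nuclei are counted, held 176 (161 to 193) CPM in WT 3dpMI and 250 (237 to 263) CPM in Q150X 3dpMI. Dendritic-like nuclei exceeded it 29.2-fold (26.1 to 32.7) in WT and 17.9-fold (16.7 to 19.2) in Q150X. Nuclei of cardiomyocyte-like cells, a type that should lack class II, served for comparison and held 16.8, 23.7, 23.2 and 45.0 CPM. The macrophage-like class exceeded the cardiomyocyte-like level of its own library 57.7-fold, 36.8-fold, 7.60-fold and 5.54-fold across the 4 libraries. Vascular endothelial-like nuclei lay between, at 44.5, 88.5, 82.4 and 115 CPM, and fibroblast-like nuclei at 45.4, 53.9, 47.7 and 82.0 CPM.

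**Figure D1:**
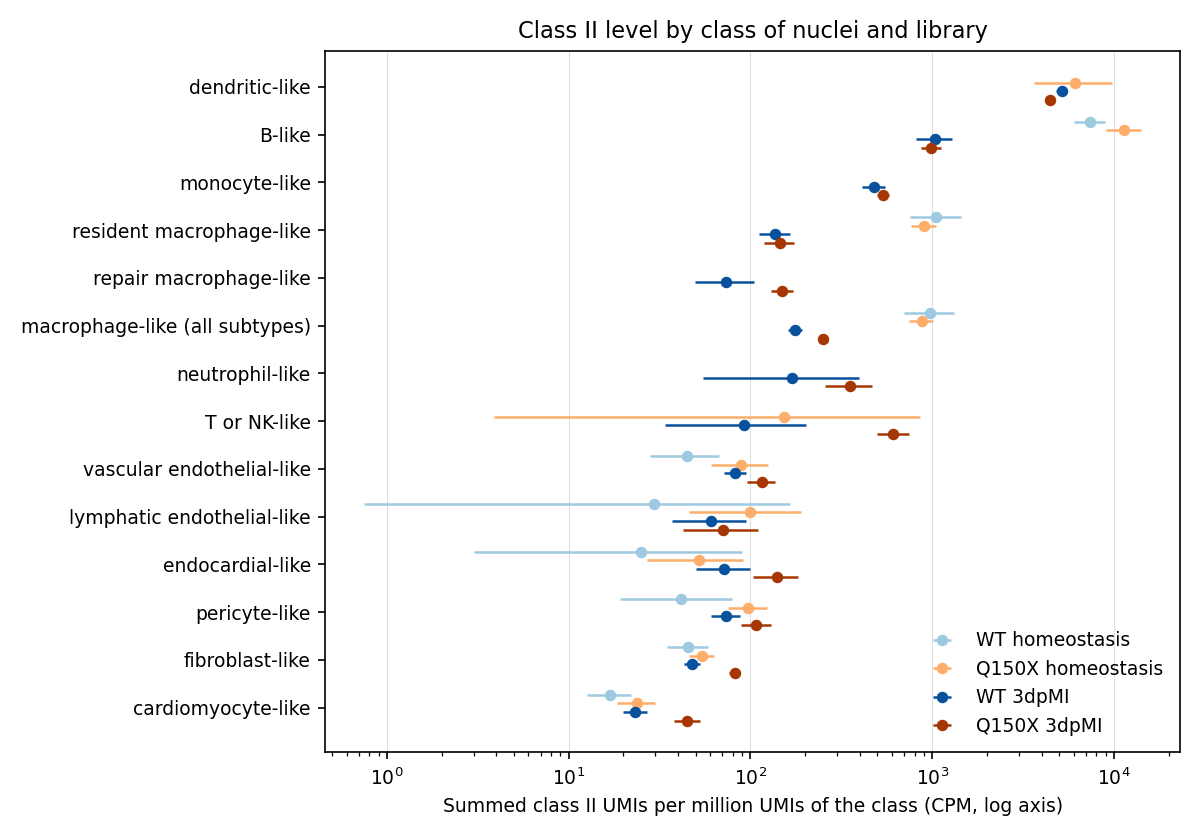
Summed class II level (horizontal log axis, CPM of all UMIs in the class) by class of nuclei, with 1 point per library and bars for the 95% counting interval; classes with under 5 nuclei or no class II UMI in a library are not drawn. Dendritic-like nuclei at 3dpMI lie at 5147 and 4471 CPM, and the resident macrophage-like points at homeostasis (1056 and 898 CPM) lie well to the right of those at 3dpMI (136 and 145 CPM).

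The share of nuclei with at least 1 class II UMI followed the same order at the head. At 3dpMI it was 98.8% (93.5 to 100, exact binomial interval) of dendritic-like nuclei in WT and 94.7% (90.1 to 97.5) in Q150X, at median depths of 1766 and 2132 UMIs. In cardiomyocyte-like nuclei of the same libraries it was 13.5% (11.6 to 15.5) and 26.5% (22.3 to 31), at median depths of 6066.5 and 7344 UMIs. Because depth alone moves such shares, each nucleus was also thinned to 500 UMIs. The thinned share was then 89.3% and 79.9% in dendritic-like nuclei, 13.9% and 16.1% in monocyte-like nuclei, 7.22% and 7.33% in resident macrophage-like nuclei, and 1.78% and 2.17% in cardiomyocyte-like nuclei. All nuclei passed the 500 UMI minimum, so none was left out by thinning.

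A class of few nuclei thus carried much of the class II RNA of the infarcted heart. Dendritic-like nuclei were 0.991% of the nuclei in WT 3dpMI and 2.29% in Q150X 3dpMI, but held 30.7% (29.1 to 32.4) and 31.8% (30.6 to 33) of all class II UMIs. Macrophage-like nuclei were 12% and 27.8% of the nuclei and held 14.9% (13.7 to 16.2) and 24.1% (23.1 to 25.2) of the UMIs. In the unperturbed hearts the leading named class was another: B-like nuclei, 0.384% of the nuclei in WT, held 32.4% (27.3 to 37.8) of its class II UMIs, and in Q150X macrophage-like nuclei held 21.3% (18.5 to 24.2), fibroblast-like nuclei 20.8% (18.1 to 23.7) and B-like nuclei 9.85% (7.9 to 12.1). Clusters left unnamed held 4.05%, 20.1%, 21% and 16%.

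**Figure D2:**
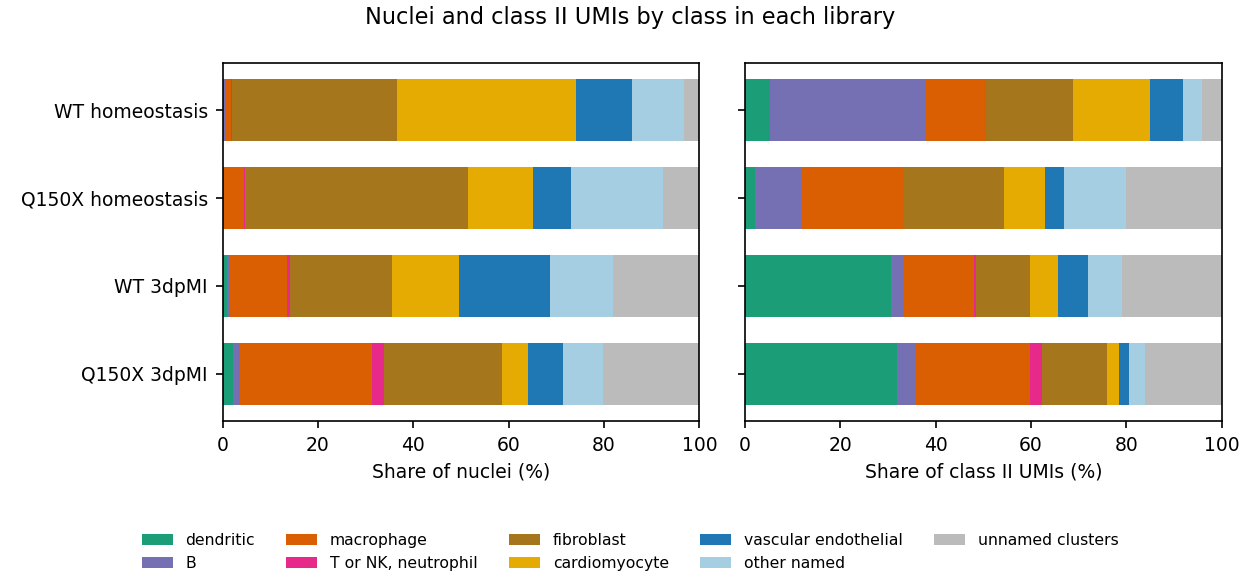
Share of nuclei (left, %) and share of class II UMIs (right, %) by class in each of the 4 libraries, as stacked bars that end at 100%. The dendritic-like segment is hardly visible on the left at 3dpMI (0.991% and 2.29%) and takes 30.7% and 31.8% on the right.

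Dendritic cells sample the tissue and carry antigen to lymph nodes. In the dendritic-like class the class II level was slightly lower in Q150X 3dpMI than in WT 3dpMI. All 7 members were detected there in each library. Ciita held 237 UMIs (1276 CPM) in WT 3dpMI and 433 UMIs (1018 CPM) in Q150X 3dpMI, Cd74 held 307 UMIs (1653 CPM) and 599 UMIs (1408 CPM), and H2-Ab1 held 123 UMIs (662 CPM) and 306 UMIs (719 CPM). The ratio of Q150X to WT lay between 0.79 for H2-Eb1 (0.64 to 0.97) and 1.09 for H2-Ab1 (0.88 to 1.35), and was 0.80 (0.68 to 0.94) for Ciita and 0.85 (0.74 to 0.98) for Cd74. A gene with 20 or more UMIs in the 2 libraries together was counted as higher or lower when its CPM differed by 1.5-fold or more. By that rule none of the 7 members was higher or lower in dendritic-like nuclei of Q150X, where 16% of 5653 genes were higher and 12% lower. The class II sum gave 0.87 (0.80 to 0.94). Of the 956 UMIs in WT, 103 came from a single nucleus. The class leaves out unnamed cluster i16, which scored 3.006 on the pericyte list and 2.917 on the migratory dendritic list. Cluster i16 went the other way, with 794 CPM in WT 3dpMI (29 nuclei) and 1331 CPM in Q150X 3dpMI (30 nuclei). Its ratio of Q150X to WT was 1.68 (1.29 to 2.18).

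The dendritic-like class had 2 clusters, and Ciita set them apart. Cluster i15, led by Clec9a, Itgae and Flt3, genes of type 1 conventional dendritic cells, held 20 nuclei in WT 3dpMI and 39 in Q150X 3dpMI. Cluster i8, led by Cd209c, Cyp7b1 and Siglech and of unnamed subtype, held 64 and 130. Their summed class II levels were close: 5307 CPM in i15 and 5090 CPM in i8 in WT, a ratio of 1.04 (0.90 to 1.204), and 4650 and 4419 CPM in Q150X, a ratio of 1.05 (0.94 to 1.17). Ciita was 1.76-fold (1.34 to 2.30) higher in i15 in WT and 1.84-fold (1.497 to 2.25) higher in Q150X. Cd74 was lower there, at a ratio of 0.87 (0.66 to 1.13) in WT and 0.73 (0.58 to 0.90) in Q150X, and H2-Aa, H2-Ab1 and H2-Eb1 gave ratios between 0.78 and 1.03 with intervals that include 1. Ciita and the chains thus stood in a different proportion in these 2 clusters, in both libraries.

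Before infarction the dendritic-like class held 2 and 5 nuclei, too few to set a level. B-like nuclei carried class II there: 7349 CPM (6005 to 8905; 16 nuclei) in WT and 11321 CPM (8990 to 14071; 8 nuclei) in Q150X, of which 32 of the 81 Q150X UMIs came from a single nucleus. Cd74 made up 70.2% (60.4 to 78.8) and 61.7% (50.3 to 72.3) of their class II UMIs, against 40.8% (29.6 to 52.7) and 40.4% (33.9 to 47) in B-like nuclei at 3dpMI. B-like nuclei stood above resident macrophage-like nuclei of the same library by 6.96-fold (4.81 to 10.3) in WT homeostasis. In WT the B-like level at 3dpMI was 0.14 (0.10 to 0.19) of that at homeostasis, and Cd74 alone gave 0.08 (0.05 to 0.13). Over the same libraries the summed B marker list went from 17384 CPM at homeostasis to 7269 CPM at 3dpMI, and the vascular endothelial marker list from 919 to 3852 CPM with 2 of its 8 and all 8 genes detected, and their part in the lower class II level was not tested.

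In macrophage-like nuclei class II was lower after infarction in each genotype. The sum stood at 970 CPM (696 to 1316; 53 nuclei) in WT homeostasis, 873 CPM (749 to 1013; 270 nuclei) in Q150X homeostasis, 176 CPM (1018 nuclei) in WT 3dpMI and 250 CPM (2048 nuclei) in Q150X 3dpMI. Both libraries of unperturbed hearts lie above both infarct libraries with intervals that do not meet. WT 3dpMI stood at 0.18 (0.13 to 0.26) of WT homeostasis, and Q150X 3dpMI at 0.29 (0.24 to 0.34) of Q150X homeostasis. When each library was clustered on its own the WT ratio was 0.0782, and with the unnamed immune clusters i2, i9 and i16 added to the class it was 0.283. Those 3 clusters did not score highest on a macrophage list, but on the cardiomyocyte, fibroblast and pericyte lists in that order. With nuclei of at least 1000 UMIs the Q150X ratio was 0.469 from 25 nuclei at homeostasis.

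The chains of the class II molecule itself took part throughout. H2-Aa stood at 142, 125, 14.0 and 31.3 CPM in macrophage-like nuclei, from 6, 25, 37 and 181 UMIs. H2-Ab1 stood at 94.7, 99.8, 15.2 and 33.7 CPM, and H2-Eb1 at 71.0, 94.8, 20.1 and 26.8 CPM, from 3 UMIs in WT homeostasis. For each of the 3 chains both homeostasis levels lie above both infarct levels. Their ratios of 3dpMI to homeostasis were 0.10 (0.04 to 0.29), 0.16 (0.06 to 0.62) and 0.28 (0.09 to 1.42) in WT and 0.25 (0.16 to 0.40), 0.34 (0.21 to 0.57) and 0.28 (0.18 to 0.48) in Q150X.

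Cd74, the chaperone of the chains, was at 497, 399, 62.6 and 87.0 CPM and gave ratios of 0.13 (0.08 to 0.21) in WT and 0.22 (0.17 to 0.28) in Q150X. Ciita, the regulator, was at 118, 99.8, 24.7 and 28.7 CPM and gave 0.21 (0.08 to 0.66) and 0.29 (0.18 to 0.48). H2-DMb1, a chain of the peptide editor and a near-identical copy of H2-DMb2 whose counts are uncertain for that reason, was at 47.3, 44.9, 13.3 and 7.95 CPM. H2-DMa, its partner, did not share the direction: 0 of 42252 UMIs in WT homeostasis, where a count of 0 allows up to 71.0 CPM, and 9.98, 26.5 and 34.1 CPM in the others, so that WT gives no ratio and Q150X gives 3.41 (0.93 to 28.4) from 2 UMIs at homeostasis.

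By the 1.5-fold rule 6 of the 7 members were lower at 3dpMI in WT and 1 gave no ratio, where 21.5% of 10253 genes were lower and 17.2% higher; the members' median log2 ratio over the 6 was −2.45, against −0.08 for all genes. In Q150X 6 of the 7 were lower and H2-DMa was higher, where 19.2% of 11979 genes were lower and 28.7% higher, and the median log2 ratio was −1.82 against 0.15 for all genes. The class changed its makeup at the same time. At homeostasis 49 of 53 and 256 of 270 macrophage-like nuclei were resident macrophage-like, and at 3dpMI 291 of 1018 and 232 of 2048.

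**Figure D3:**
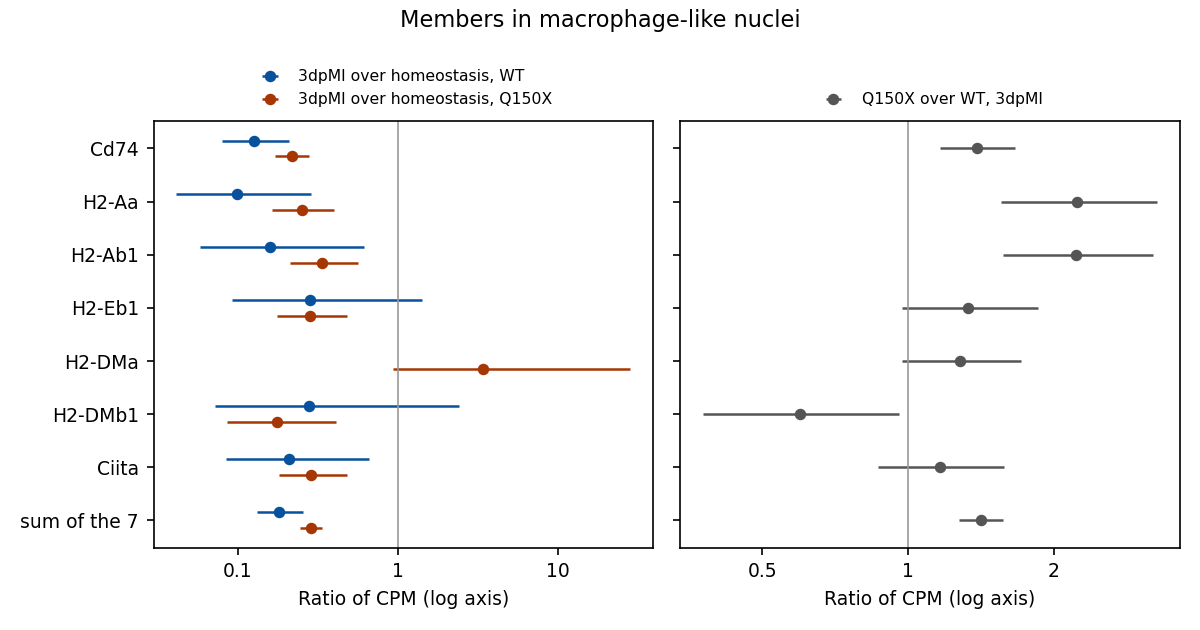
Ratio of CPM in macrophage-like nuclei for each member and for their sum (log axes), with 95% counting intervals: 3dpMI over homeostasis in each genotype (left) and Q150X over WT at 3dpMI (right), with a line at 1. On the left the points lie below 1 except H2-DMa in Q150X (3.41; WT has no ratio), and on the right H2-Aa (2.23) and H2-Ab1 (2.22) lie highest and H2-DMb1 (0.60) lowest.

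The lower level was also present among resident macrophage-like nuclei alone, the class named from scavenger and long-lived macrophage genes such as Cd163, Lyve1 and Mrc1. Class II there was at 1056 CPM (758 to 1432), 898 CPM (767 to 1044), 136 CPM (111 to 164) and 145 CPM (119 to 174), a ratio of 3dpMI to homeostasis of 0.13 (0.09 to 0.19) in WT and 0.16 (0.13 to 0.21) in Q150X. Cd74 went from 21 UMIs (541 CPM) to 27 UMIs (34.9 CPM) in WT and from 74 UMIs (396 CPM) to 31 UMIs (39.7 CPM) in Q150X. In WT 2 members had 20 UMIs and both were lower by the 1.5-fold rule, where 18.8% of 6265 genes were lower and 25.4% higher. In Q150X 5 of 6 were lower and H2-DMa was higher, where 15% of 6966 genes were lower and 32.7% higher. Different clusters hold the class in the compared libraries: cluster i7, led by D830005E20Rik, Ppargc1a and Lyve1, held 48 and 249 nuclei at homeostasis and 30 and 0 at 3dpMI. Its 10 leading genes also hold the heart muscle genes Tnni3k, Rbm20 and Ryr2, and its score for cardiomyocyte markers (2.21) was not far below that for resident macrophage markers (2.745); nearly all nuclei of the class at homeostasis were in this cluster. Cluster i4, led by Fat3, Slc13a3 and Colec12, held 1, 7, 261 and 232. Within WT 3dpMI, i7 stood at 499 CPM and i4 at 116 CPM, but 17 of the 20 class II UMIs of i7 came from 1 nucleus.

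Other RNA moved with this contrast. In resident macrophage-like nuclei the 7 cardiomyocyte markers, all detected in each library, summed to 11614 and 8824 CPM at homeostasis and to 2240 and 595 CPM at 3dpMI, and the median depth was 675, 628.5, 2421 and 3000 UMIs. The 9 conventional dendritic markers summed to 567, 481, 762 and 869 CPM; Flt3, Clec9a, Xcr1, Cd209a and Itgae were at 0 in both homeostasis libraries. Of the 8 B markers, summed to 1133, 861, 317 and 195 CPM, Ms4a1, Cd79a and Pax5 were at 0 in both homeostasis libraries. Subtracting the class II level of cardiomyocyte-like nuclei left the macrophage-like ratios at 0.161 in WT and 0.241 in Q150X.

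Across genotypes at homeostasis the macrophage-like class II level did not separate. The ratio of Q150X to WT was 0.90 (0.64 to 1.30) in macrophage-like and 0.85 (0.60 to 1.23) in resident macrophage-like nuclei, from 175 and 41, and 168 and 41 UMIs. None of the 5 members with at least 20 UMIs was higher or lower by the 1.5-fold rule in either class; of all genes 25.7% were higher and 13.9% lower among 2600 in macrophage-like nuclei, and 26% and 14.9% among 2423 in resident macrophage-like nuclei. The value is not settled to a direction: it was 1.12 without the nucleus of most class II UMIs in each library, and 0.601 when each library was clustered alone.

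At 3dpMI the sum was higher in Q150X macrophage-like nuclei, at a ratio of 1.41 (1.27 to 1.57). The I-A chains led: H2-Aa went with 37 UMIs (14.0 CPM) in WT and 181 UMIs (31.3 CPM) in Q150X, 2.23-fold (1.56 to 3.27), and H2-Ab1 with 40 UMIs (15.2 CPM) and 195 UMIs (33.7 CPM), 2.22-fold (1.58 to 3.21). H2-Eb1 gave 1.33 (0.97 to 1.86), Cd74 1.39 (1.16 to 1.67), H2-DMa 1.28 (0.97 to 1.71) and Ciita 1.16 (0.87 to 1.58). H2-DMb1 was on the other side, with 35 UMIs (13.3 CPM) in WT and 46 UMIs (7.95 CPM) in Q150X, a ratio of 0.60 (0.38 to 0.96). By the 1.5-fold rule 2 of the 7 members were higher and 1 lower, where 7.05% of 12758 genes were higher and 8.56% lower, and the median log2 ratio was 0.42 against 0.01 for all genes. The size of the ratio depended on which nuclei were called macrophage-like: it was 2.22 when each library was clustered alone and 1.17 at a clustering resolution of 2.

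The same contrast was read in each subtype. In monocyte-like nuclei, whose cluster was led by Vcan and held Ccr2 and Fn1 among its leading genes, class II gave a ratio of 1.13 (0.96 to 1.33), and in resident macrophage-like nuclei 1.07 (0.81 to 1.40). In repair macrophage-like nuclei, named from Gpnmb, Arg1 and related genes, it was 73.3 CPM (49.8 to 104; 31 UMIs in 161 nuclei) in WT and 150 CPM (130 to 172; 204 UMIs in 457 nuclei) in Q150X, a ratio of 2.04 (1.39 to 3.08). H2-Aa there had 1 UMI in WT and 28 in Q150X, H2-Ab1 1 and 29, H2-Eb1 2 and 22, and Ciita 0 and 9; the ratio of H2-Aa, 8.68, has an interval from 1.44 to 355. The unnamed macrophage-like clusters i1 (161 and 404 nuclei) and i6 (132 and 188 nuclei, led by cell division genes such as Kif15 and Kif11) gave 1.52 (1.14 to 2.07) and 1.49 (1.09 to 2.04), and i11 gave 0.70 (0.43 to 1.19). Whether the genotype ratio differs between subtypes was not tested. In monocyte-like nuclei H2-Ab1 (1.99; 1.17 to 3.61) and H2-Aa (1.54; 0.91 to 2.77) were higher and H2-DMb1 (0.36; 0.16 to 0.82) lower by the 1.5-fold rule, 3 of 7 members, where 12.1% of 8475 genes were higher and 9.56% lower. In resident macrophage-like nuclei 5 members had 20 UMIs, of which 2 were higher and 1 lower, against 10.8% and 8.91% of 8522 genes.

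Makeup moved with the genotype contrast as well. Monocyte-like nuclei were 237 of the 1018 macrophage-like nuclei in WT 3dpMI and 654 of the 2048 in Q150X 3dpMI, and they stood 3.52-fold (2.76 to 4.51) and 3.71-fold (3.04 to 4.57) above resident macrophage-like nuclei of the same library in class II. Repair macrophage-like nuclei stood at or below the resident level, with a resident to repair ratio of 1.85 (1.23 to 2.86) in WT and 0.97 (0.76 to 1.22) in Q150X. In WT 3dpMI the repair macrophage-like level, 0.89 (0.59 to 1.30) of that of vascular endothelial-like nuclei and 1.54-fold that of fibroblast-like nuclei, was near the levels of cells that are not immune. The 8 monocyte markers summed to 913 and 1476 CPM in the macrophage-like class of the 2 infarct libraries and the 7 cardiomyocyte markers to 2319 and 785 CPM, all detected in both. Their part in the ratio of 1.41 was not tested.

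The lists of related genes followed other courses in the same macrophage-like class, whose makeup differed between homeostasis and 3dpMI as given above. The part of makeup in the ratios of these lists was not tested. The 8 antigen processing genes, proteases and reductases that cut the antigen and the invariant chain in endosomes, were higher after infarction while the class II genes were lower: 6 were higher, 1 lower and 1 without a ratio in WT (median log2 ratio 2.55), and all 8 were higher in Q150X (2.23), against 17.2% of all genes higher and 21.5% lower in WT and 28.7% and 19.2% in Q150X. Lgmn, an asparagine endopeptidase, went from 118 to 988 CPM in WT (8.35-fold; 3.57 to 25.7) and Ctsl, cathepsin L, from 4.99 to 257 CPM in Q150X, from 1 UMI at homeostasis. Sppl2a, which clears the membrane stub of Cd74, was the lower gene in WT at 0.44 (0.24 to 0.88) and among the higher in Q150X at 2.49 (1.34 to 5.21). Ctss, cathepsin S, which makes the last invariant chain cut in many antigen presenting cells, was 2.02-fold (1.06 to 4.42) higher in WT and 2.16-fold (1.66 to 2.86) in Q150X. Between genotypes at 3dpMI 3 of the 8 were higher in Q150X (median log2 ratio 0.48), against 7.05% of all genes: Ctsl 2.12-fold (1.88 to 2.40), Ctsb 1.57-fold (1.498 to 1.65) and Ctsd.

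Of the 17 regulators of class II, 3 were higher and 3 lower at 3dpMI in WT, 2 gave no ratio and 3 were not measured, and in Q150X 6 were higher and 1 lower. In WT these shares are near those of all genes, 17.2% higher and 21.5% lower. In Q150X 28.7% of all genes were higher and 19.2% lower, and the share of regulators that were lower was smaller than that. Nfya, a subunit of the Y box factor NF-Y, stood at 47.3 CPM (2 UMIs) at homeostasis and 94.4 CPM at 3dpMI in WT and was 2.76-fold (1.26 to 7.56) higher at 3dpMI in Q150X, and Irf8 gave 1.11 (0.43 to 4.10) and 3.73 (1.80 to 9.30). Creb1, of the X box complex, gave 1.07 and 0.69. Between genotypes at 3dpMI, where all 17 were measured, the median ratio was 1.01; Rfxank, a subunit of the X box factor RFX, gave 1.63 (0.85 to 3.40) from 12 UMIs in WT and 43 in Q150X. Of the 13 interferon γ genes, 10 were measured in that contrast and 3 were higher, against 7.05% of all genes, Cxcl10 among them at 1.77 (1.12 to 2.89).

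The class I genes present peptides made inside the cell. Of 12, 3 were higher, 2 lower and 4 without a ratio in WT, and 4 were higher and 1 lower in Q150X, shares near the 17.2% and 28.7% of all genes that were higher, with H2-D1 at 1.46 (0.66 to 3.98) and 1.70 (1.19 to 2.51). Between genotypes at 3dpMI 2 of 12 were higher in Q150X, against 7.05% of all genes, with H2-T23 at 1.60 (1.23 to 2.10) and Psmb10 at 1.56 (0.98 to 2.57). Of the 5 co-stimulation genes measured, 3 were lower after infarction in WT, where 21.5% of all genes were lower, and in Q150X 1 was lower and 1 higher, against 19.2% and 28.7% of all genes; Cd86, the CD28 ligand, stood at 473, 319, 164 and 102 CPM and was lower after infarction at 0.35 (0.22 to 0.57) and 0.32 (0.25 to 0.42). Over the whole macrophage-like class Cd86 was also lower in Q150X than in WT at 3dpMI, at 0.62 (0.55 to 0.71). Cd274, the PD-1 ligand, was higher there at 2.22 (1.67 to 3.01), on the same side of 1 as H2-Aa (2.23). In monocyte-like nuclei alone Cd86 gave 0.83 (0.63 to 1.11) and Cd274 1.03 (0.50 to 2.34). In repair macrophage-like nuclei Cd86 stood at 49.6 CPM in WT and 53.5 CPM in Q150X. Cd274 stood there at 18.9 CPM (8 UMIs) in WT and 67.4 CPM in Q150X. The part of makeup in the pooled ratios was not tested. Among turnover genes Cd83, which protects surface class II, was lower after infarction at 0.40 (0.11 to 3.40) in WT and 0.09 (0.06 to 0.14) in Q150X, while Marchf1, the ligase that removes it, gave 0.93 and 0.79.

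Endothelial cells of the heart are known to carry class II when exposed to interferon γ. The class named vascular endothelial-like leaves out unnamed clusters, c8 and c9 among them, that also scored highest on the vascular endothelial list. At 3dpMI c8 held 556 nuclei in WT and 522 in Q150X, and c9 399 and 395, against 1623 and 539 in the class. The class II ratio of Q150X to WT at 3dpMI was 1.23 (0.94 to 1.63) in c8 and 1.93 (1.35 to 2.81) in c9. In vascular endothelial-like nuclei class II summed to 22, 33, 195 and 127 UMIs, or 44.5, 88.5, 82.4 and 115 CPM, of which Cd74 gave 9, 14, 77 and 37 UMIs and Ciita 1, 2, 8 and 8. The WT homeostasis library stood lowest. The level at 3dpMI was 1.85-fold (1.19 to 3.03) that at homeostasis in WT, and 1.30-fold (0.88 to 1.98) in Q150X. Before infarction Q150X stood 1.99-fold (1.13 to 3.58) above WT, and at 3dpMI 1.40-fold (1.11 to 1.76). With each library clustered alone the genotype ratios were 1.35 (0.80 to 2.34) at homeostasis and 1.11 (0.89 to 1.38) at 3dpMI, and both intervals then include 1. At 3dpMI H2-Eb1 had 24 UMIs (10.1 CPM) in WT and 27 UMIs (24.5 CPM) in Q150X, 2.42-fold (1.34 to 4.38), whereas Cd74 gave 1.03 (0.68 to 1.55). By the 1.5-fold rule 3 of the 5 members measured were higher in Q150X at 3dpMI, where 11.5% of 10886 genes were higher and 8.71% lower. At homeostasis only Cd74 had 20 UMIs and was higher (2.06; 0.83 to 5.40), where 15.4% of 5758 genes were higher and 10.2% lower. After infarction 4 of 5 were higher in WT, where 31.6% of 10112 genes were higher and 7.2% lower, and 1 of 3 in Q150X, where 29.3% of 8302 genes were higher and 11.5% lower.

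The same genotype order appeared in fibroblast-like, cardiomyocyte-like, endocardial-like and pericyte-like nuclei. Fibroblast-like nuclei gave Q150X to WT ratios of 1.19 (0.88 to 1.62) before infarction and 1.72 (1.51 to 1.95) after it, and cardiomyocyte-like nuclei 1.41 (0.97 to 2.06) and 1.94 (1.55 to 2.42). Endocardial-like nuclei stood at 24.9, 52.1, 71.5 and 140 CPM, and pericyte-like nuclei at 41.7, 96.6, 73.6 and 108 CPM. Over cardiomyocyte-like nuclei the vascular endothelial level was 2.64-fold, 3.73-fold, 3.55-fold and 2.56-fold higher in the 4 libraries. At 3dpMI the genotype ratio of cardiomyocyte-like nuclei (1.94) was larger than that of vascular endothelial-like nuclei (1.40), and how much of the endothelial or fibroblast ratio is RNA from other cells was not tested; with the cardiomyocyte level subtracted the endothelial ratio at 3dpMI was 1.19.

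H2-DMa was the member that did not follow the others. It made up 1.26% (0.65 to 2.18) and 1.21% (0.768 to 1.81) of the class II UMIs of dendritic-like nuclei at 3dpMI, but 44.9% (39.7 to 50.3) and 33% (29.8 to 36.3) in fibroblast-like and 39.4% (32.3 to 47) and 51.7% (43.4 to 59.9) in cardiomyocyte-like nuclei. Its own level differed less between classes than the class II sum did: 64.6 and 54.1 CPM in dendritic-like, 26.5 and 34.1 CPM in macrophage-like, 21.4 and 27.0 CPM in fibroblast-like and 9.15 and 23.3 CPM in cardiomyocyte-like nuclei. From dendritic-like to macrophage-like nuclei H2-DMa differed 2.43-fold (1.201 to 4.52) in WT 3dpMI, where Cd74 differed 26.4-fold (21.8 to 32.1) and Ciita 51.8-fold (39.2 to 69.2). Without H2-DMa the sum gave a ratio of Q150X to WT of 1.55 (1.13 to 2.10) in cardiomyocyte-like nuclei at 3dpMI and 2.09 (1.77 to 2.47) in fibroblast-like nuclei.

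The H2-DMa gene shares sequence with a neighbour. In the GENCODE M21 annotation (GRCm38) H2-DMa spans chromosome 17 from 34119541 to 34139101 on the plus strand and overlaps Brd2, a chromatin reader read from the minus strand, by 3094 bases; the deposited counts use another build, GRCm39. Brd2 had 188, 303, 2050 and 2342 UMIs in the filtered libraries and stood at 129 and 120 CPM in dendritic-like and 46.5 and 58.6 CPM in cardiomyocyte-like nuclei at 3dpMI, a smaller difference between these classes than that of the class II sum. No source used here says whether strand entered the counting; without it, reads of the 2 genes cannot be told apart. Ciita overlaps Dexi, on the other strand, by 25888 bases and H2-Eb1 an antisense gene model by 2204 bases, and the same limit holds for them.

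**Figure D4:**
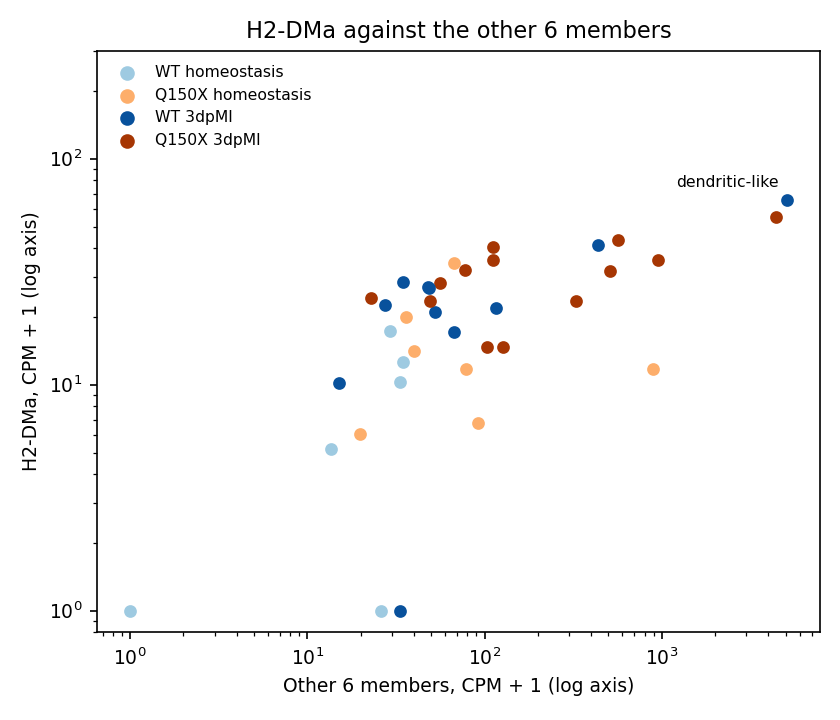
H2-DMa level (vertical) against the summed level of the other 6 members (horizontal) in the 37 class and library pairs with at least 50 nuclei, both as CPM + 1 on log axes and coloured by library. The points spread more widely along the horizontal axis than along the vertical one, and the dendritic-like points lie at the far right at 64.6 and 54.1 CPM of H2-DMa.

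**Figure D5:**
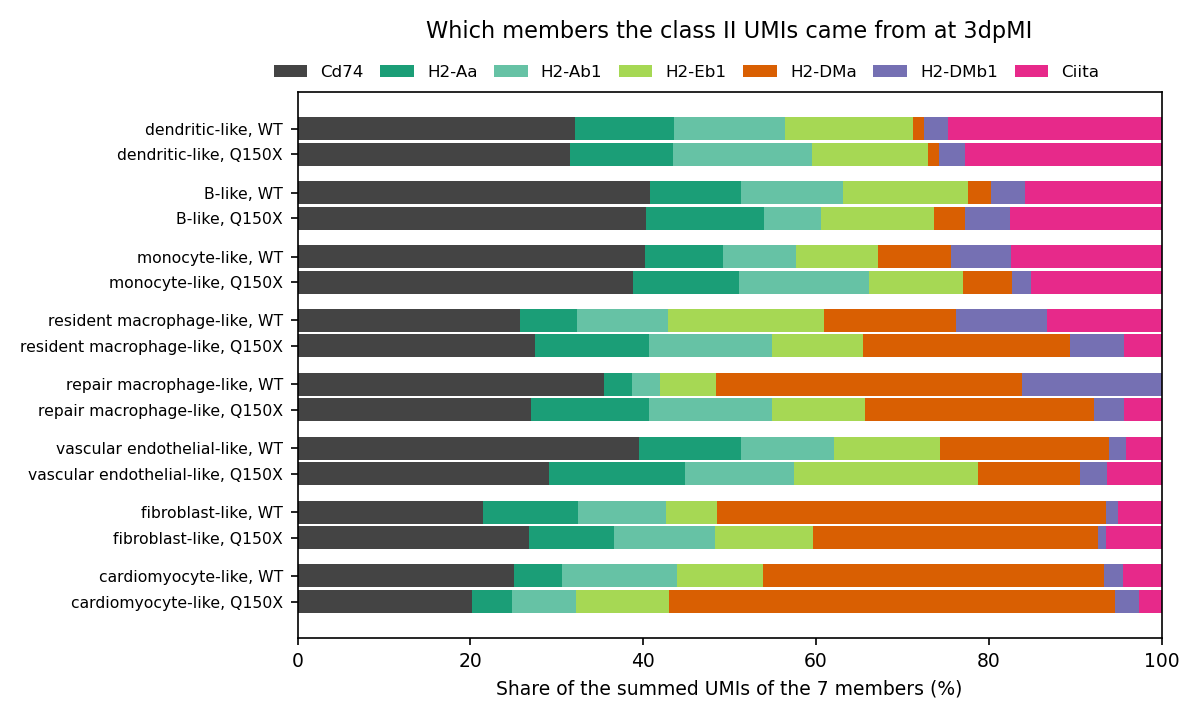
Share of the summed UMIs of the 7 members (%) given by each member in 8 classes at 3dpMI, as stacked bars that end at 100%. H2-DMa takes 1.26% and 1.21% of the dendritic-like bars and 44.9% and 33% of the fibroblast-like bars, while Ciita takes 24.8% and 22.8% of the dendritic-like bars.

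Across those 37 class and library pairs, on log2(CPM + 1), each of the other 6 members correlated with the sum of the remaining members at a Pearson r between 0.84 and 0.90, and H2-DMa at 0.63; H2-DMa and Brd2 gave 0.57. Among 12126 other genes with at least 200 UMIs the 10 most like the summed class II level were Rp2, Tyk2, Unc93b1, Ptprc, Cntrl, Epsti1, Runx1, Ipcef1, Cytip and Gpr183, with r between 0.83 and 0.87. Ptprc encodes CD45, carried by nearly all blood cells, and Unc93b1 moves endosomal Toll-like receptors. The points share libraries and depth and most of the range lies between immune and other classes, so these values describe this set of nuclei and carry no test.

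Small classes showed how few nuclei can set a level. T or NK-like nuclei held 6 UMIs (92.7 CPM; 37 nuclei) in WT 3dpMI and 100 UMIs (610 CPM; 68 nuclei) in Q150X 3dpMI, and 37 of the 100 came from 1 nucleus. Neutrophil-like nuclei, found only at 3dpMI, held 5 UMIs (170 CPM; 55.2 to 397) and 47 UMIs (351 CPM; 258 to 467). Schwann-like nuclei of WT 3dpMI reached 373 CPM, with 22 of 42 UMIs in 1 nucleus. The interferon-responsive cluster i11 of the macrophage-like class, led by Rsad2, Cxcl10 and Mx1, held 281 CPM (180 to 419; 36 nuclei) and 198 CPM (148 to 258; 113 nuclei), below the monocyte-like level of its own library.

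Over all nuclei class II stood at 58.4 (52.2 to 65.1), 97.9 (91.4 to 105), 117 (113 to 121) and 221 (216 to 227) CPM. Q150X thus exceeded WT 1.68-fold (1.47 to 1.91) before infarction and 1.89-fold (1.81 to 1.97) after it. Such a library total joins the level within a class to the share of nuclei and UMIs in it. With the UMI shares of the classes in WT and the levels of Q150X the ratio was 1.47 at homeostasis and 1.27 at 3dpMI. With the levels of WT and the UMI shares of Q150X it was 1.198 and 1.60. At 3dpMI the larger of these 2 ratios was thus the one from the shares. Each class entered with 1 level, so makeup within the macrophage-like class and within the pooled unnamed clusters counted as level. At homeostasis some levels came from few nuclei: 2 and 5 dendritic-like and 16 and 8 B-like in WT and Q150X. Counted by nuclei at 3dpMI, Q150X had 27.8% macrophage-like and 2.29% dendritic-like nuclei against 12% and 0.991% in WT. With 1 library per group, genotype and library cannot be told apart in these shares.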

How the data were processed

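Single-nucleus RNA of whole hearts was analysed in 4 libraries, 1 per group. Values in the deposited matrices are unnormalized UMI counts, 1 per gene in each nucleus. Per the file headers, the authors counted with Cell Ranger 7.1.0; the submitters' processing notes give GRCm39 as the build and also name Scanpy. The deposited nuclei numbered 4390, 6544, 9157 and 8125, with 5875965, 9283645, 30413471 and 32657625 UMIs.

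From these counts, nuclei with at least 500 UMIs, 300 genes and at most 10% mitochondrial UMIs were kept. Scrublet removed 214, 336, 670 and 756 doublets; in Q150X homeostasis and WT 3dpMI its automatic threshold marked under 0.5%, and the highest scores at 0.8% per 1000 nuclei were removed instead. Scanpy 1.11.5 (Python 3.11.15) clustered on 2000 variable genes without class II genes, 30 components, 15 neighbours and Leiden resolution 1 (leidenalg 0.10.2). Clusters were named from marker lists when at least 3 markers were seen in 5% of nuclei and the score led by 0.5. Others stayed unnamed, as did clusters whose leading genes held more markers of another class than of their own. Clusters of low UMI count with no marker among the leading genes also stayed unnamed. The same held for subclusters of the immune nuclei whose best list was not an immune class. UMIs were summed per class and library. CPM have exact Poisson, shares exact Clopper-Pearson and ratios exact conditional binomial 95% intervals (scipy 1.17.1), which cover counting error only. A count of 0 was bounded at 3 counts. Ratios were tested on simulated data.

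Named genes are the 7 members and, per list, up to 2 at each end of the ratio with at least 50 UMIs, plus genes whose role a result turns on. Members and lists were chosen with earlier results of these data known. H2-Ea was not analysed here, and 1 result on a listed gene is not reported here. The 7 planned and 3 added alternatives are given with their effect in the closing section.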

Additional observations from a re-analysis of the deposited data

Results flagged for a closer look

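Some ratios of Q150X to WT lay on opposite sides of 1 at homeostasis and at 3dpMI. With 1 library per group, the difference between both states was not tested. In macrophage-like nuclei the class II sum went from 0.9 (0.637 to 1.3) at homeostasis to 1.41 (1.27 to 1.57) at 3dpMI. H2-Aa, the I-A α chain, went from 0.879 to 2.23, Cd74, the invariant chain, from 0.803 to 1.39, and Ciita, the regulator, from 0.843 to 1.16. In resident macrophage-like nuclei the sum went from 0.851 to 1.07. Each homeostasis interval includes 1, as do those of Ciita and of the resident sum at 3dpMI.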

How the results depend on the processing

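No result could be checked against replicates, and intervals cover counting error alone; levels rest on 41 class II UMIs in WT homeostasis macrophage-like nuclei, so ratios against that library are the least precise. No paired analysis was possible because each group is 1 library. Of 88 values that an alternative could change over 10 results, 68 moved by less than their counting interval, 20 moved further and none changed to the other side of 1 among those with an interval clear of it; 87 stayed on the same side of 1, the exception being the macrophage-like genotype ratio at homeostasis, 1.12 without the nucleus with the most class II UMIs. The cause of each shift below was not tested.

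With each library clustered alone, the macrophage-like genotype ratio was 0.601 at homeostasis and 2.22 at 3dpMI, the WT ratio of 3dpMI to homeostasis 0.0782, and the endothelial genotype ratio at 3dpMI 1.11. At Leiden resolution 2 the macrophage-like genotype ratio at 3dpMI was 1.17, and dendritic-like over macrophage-like nuclei 22.4 in WT and 15.3 in Q150X. With the unnamed immune clusters i2, i9 and i16 counted as macrophage-like, the ratio of 3dpMI to homeostasis was 0.283 in WT and 0.397 in Q150X, and dendritic-like over macrophage-like 23.6 and 15.7. These clusters scored highest on the cardiomyocyte, fibroblast and pericyte lists, so this alternative adds nuclei that no macrophage list marked. With the cardiomyocyte-like level subtracted, the Q150X ratio of 3dpMI to homeostasis was 0.241 and the dendritic-like ratios 33.5 and 21.6; without H2-DMa the latter were 33.9 and 20.5. Means over nuclei gave 23.1 in WT, and in Q150X no doublet removal gave 15.8 and class II genes in the clustering 16.4. With at least 1000 UMIs per nucleus, the Q150X ratio of 3dpMI to homeostasis was 0.469; that minimum gave no value for ratios against WT homeostasis macrophage-like nuclei. The alternatives without H2-DMa, without the top nucleus and with those clusters added were chosen after seeing the data.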
